A study of Mus musculus with 10 samples.

Results

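This report describes 8 genes of T helper cells in the spleen of mice immunized with cartilage proteoglycan (PG), and how their signals varied with age and arthritis. They are the lineage regulators Tbx21 and Gata3 and the cytokine genes Ifng, Il2, Il4, Il17a, Il6 and Il10. The genes were chosen by name, and each had 1 probe set with that symbol alone, so that 8 of 18193 named genes, and 8 of 45037 probe sets other than controls, are described. Another probe set carries the Il2 symbol beside a different gene and was not used.

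The samples were spleens of 10 female BALB/c mice, an inbred strain in which PG with an adjuvant (dimethyldioctadecyl-ammonium bromide) induces an autoimmune arthritis (PGIA). All 10 mice had been immunized and none was a naive control. There were 2 old arthritic mice of 9 months, 2 old non-arthritic mice of 7 and 5 months, 2 young arthritic mice of 5 and 4 months, and 4 young non-arthritic mice of 3, 3, 2 and 1 months, in the order of their replicate numbers. In each age group the arthritic mice were the older ones, so that arthritis and age cannot be told apart within an age group, and the labels do not say at which point of the experiment the age was taken. The submitters' design text gives 1 month as the age of young mice and over 4 months as that of old mice, while labelled ages of young mice reach 5 months, so that old and young here follow the labels and the ages in months carry this doubt. Spleen tissue collected at sacrifice was measured on 1 Affymetrix array per mouse. Values are log2 signals made by RMA (robust multi-array average), which normalizes the arrays to each other. The deposited signals were still not on 1 distribution, as given below. A difference of 1 on this scale is a doubling of the signal.

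T helper cells are CD4+ T cells that divide into subsets with different cytokines. Th1 cells are directed by T-bet, the product of Tbx21, and secrete interferon gamma. Th2 cells are directed by GATA3 and secrete IL-4, while Th17 cells secrete IL-17A and arise under the influence of IL-6. IL-2 is the growth factor of activated T cells, and IL-10 is an inhibitory cytokine made by T cells, B cells and myeloid cells. In PGIA, interferon gamma and IL-4 have been used as opposing readouts of the Th1/Th2 balance. Several of these genes are not particular to T cells, since natural killer (NK) cells also express Tbx21 and Ifng, and basophils and mast cells express Il4.

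The signals of 7 of the 8 genes lay below the median of their array in all 10 mice, and the exception, Tbx21, lay above it in all 10. Array medians ran from 6.88 to 6.96 on the log2 scale. The deposited table has no detection calls, so a level above background was not shown for the 7 dim genes, and a difference between 2 of their values is a difference in signal that can understate a change in RNA. Tbx21 exceeded 66.2% to 75.2% of the probe sets of its array. Gata3 came next, at 30.2% to 46.1%. The cytokine genes lay lower, with Ifng at 25.3% to 31.9%, Il10 at 19.8% to 37.1%, Il17a at 24.9% to 26.9%, Il4 at 18.1% to 27.6%, Il6 at 10.1% to 28.9% and Il2 at 12.3% to 22.7%. These positions depend on each probe set's affinity and do not rank the genes by RNA amount. The spleen itself was well represented, as 8 of 8 measured B cell markers and 15 of 15 measured T cell markers exceeded the array median in at least 2 mice.

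**Figure D1:**
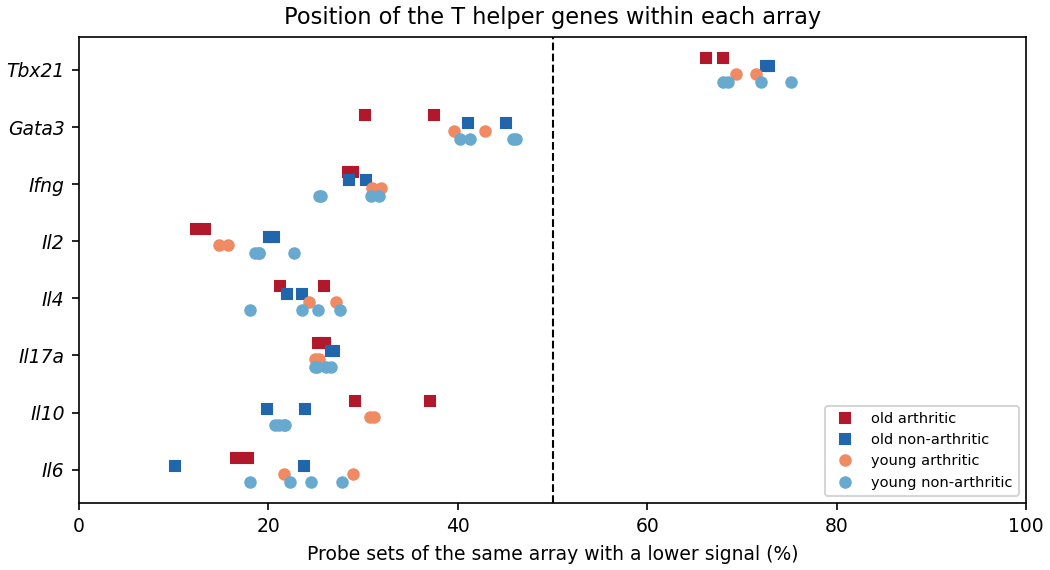
Position of each gene's signal within its array (x-axis, percent of probe sets of the same array with a lower signal) for the 8 genes (y-axis), where each point is 1 mouse and the dashed line is the array median. Tbx21 lies between 66.2% and 75.2%, and the other 7 genes lie left of the line in every mouse.

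Across the comparisons, Il10 was higher and Il2 was lower in the spleens of arthritic mice, and none of the 8 genes passed the test for age. In a model with a linear term for age, the log2 signal of Il10 was 0.62 higher in arthritic mice and that of Il2 was lower by 0.35. Tbx21, Gata3, Ifng, Il4, Il6 and Il17a did not pass the threshold in any of the 7 comparisons. The test was limma fitted to all 45037 probe sets, and a gene was called at a Benjamini-Hochberg adjusted p under 0.05. In the model that holds both age in months and arthritis (comparison at equal age), 2 of the 8 genes were called for arthritis, against 12.2% of all probe sets. Equal age there rests on the same straight line with age for arthritic and non-arthritic mice. Their labelled ages met at 5 months alone, so that the mice were not matched for age. The 21232 probe sets that did not exceed the array median in at least 2 mice are called dim here, and 7 of the 8 genes lie among them. Of these dim probe sets 17.7% were called, so that a count of 2 among 8 is not a result about the genes as a group.

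Dim probe sets as a whole differed between arthritic and non-arthritic arrays. At an unadjusted p under 0.05 in limma at equal age there were 35.8% of them and 29.1% of all probe sets. The lowest 0.1% of signals ended at 3.36 to 3.38 in the arthritic arrays and at 3.25 to 3.30 in the non-arthritic arrays. All 4 arthritic arrays lie on the same side, so that this shift and arthritis cannot be told apart, and its part in the values of Il10 and Il2 was not tested.

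**Figure D2:**
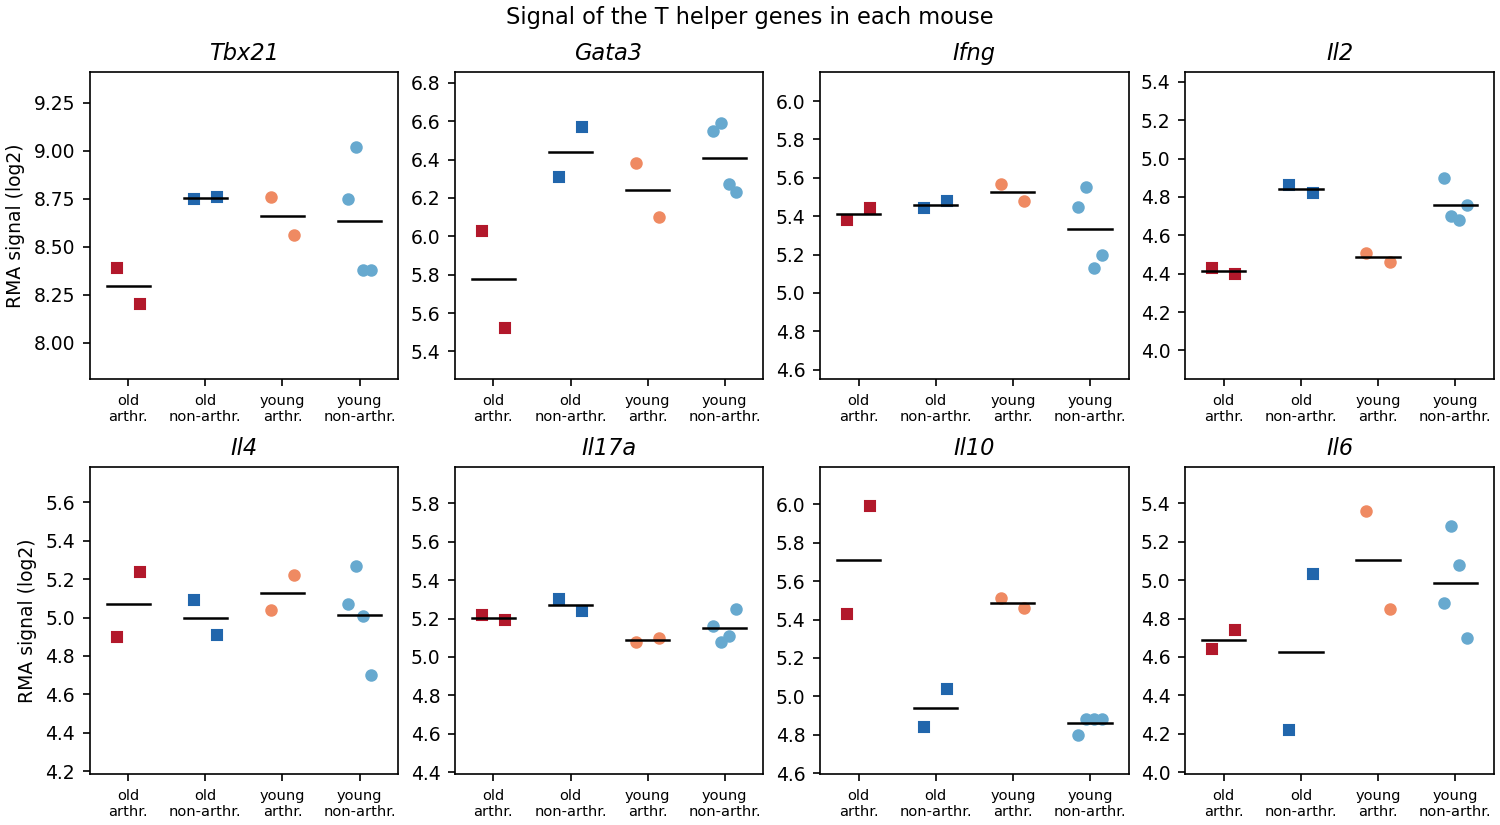
RMA signal (y-axis, log2) of each of the 8 genes in each mouse, by group (x-axis), where each point is 1 mouse, the line is the group mean and the panels span equal ranges. Il10 was higher and Il2 was lower in all 4 arthritic mice than in all 6 non-arthritic mice, and the 2 sets of mice overlapped for the other 6 genes.

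Il10 encodes IL-10, a cytokine that restrains macrophages, dendritic cells and inflammatory T cell responses. Its signal was 5.43 and 5.99 in the old arthritic mice, against 4.84 and 5.04 in the old non-arthritic mice. It was 5.51 and 5.46 in the young arthritic mice, against 4.80, 4.88, 4.88 and 4.88 in the young non-arthritic mice. The lowest arthritic mouse thus lay above the highest non-arthritic mouse, and old arthritic replicate 2 was the highest of all. Among all probe sets, 12.2% separated the 4 arthritic from the 6 non-arthritic mice in the same direction, and 14.3% of the dim ones did. The mean was 5.60 ± 0.26 in arthritic mice and 4.89 ± 0.08 in non-arthritic mice (SD, n = 4 and 6).

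At equal age, the difference in Il10 was 0.62 (standard error 0.13, 95% interval 0.34 to 0.90, adjusted p = 0.0127 from limma). In this comparison 7.14% of all probe sets were called higher in arthritic mice, and of the dim probe sets 8.44% were. A difference at least as large as that of Il10 in the same direction was found in 1.54% of the dim probe sets. The call was lost without old non-arthritic replicate 1 (0.52, adjusted p = 0.103 from limma) and without young arthritic replicate 2 (0.67, adjusted p = 0.0647 from limma), and it was kept without any other single mouse. Without old arthritic replicate 2, the mouse with the highest value, the difference was 0.58 (adjusted p = 0.00345 from limma).

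The same gene passed in 3 comparisons that share mice with this one. Within the old mice the difference was 0.77 (standard error 0.16, adjusted p = 0.0284 from limma), where 5.06% of all and 8.05% of dim probe sets were called. Within the young mice it was 0.63 (standard error 0.14, adjusted p = 0.0271 from limma), where 7.07% of all and 11.7% of dim probe sets were called. Among mice of 4 months or more, the arthritic mice were set against the old non-arthritic mice, which brings the mean ages to 6.75 and 6 months. There the Il10 difference was 0.65 (standard error 0.14, adjusted p = 0.0209 from limma), and 8.87% of all and 13.2% of dim probe sets were called. The effects of arthritis in old and young mice differed by 0.14 (95% interval -0.33 to 0.61, adjusted p = 1 from limma), so that no difference between the age groups was detected. The call in old mice ended without old arthritic replicate 2, at 0.48 (adjusted p = 0.116 from limma). It also ended without old non-arthritic replicate 1 (0.67, adjusted p = 0.145) and without old non-arthritic replicate 2 (0.86, adjusted p = 0.116 from limma). Without old arthritic replicate 1 the difference was 1.05 and kept its call. With the old mice alone in the fit the difference of 0.77 was not called (adjusted p = 0.162) and 0 of all probe sets were, and with the replicate block the adjusted p was 0.075.

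In the young mice the Il10 call ended without any 1 of the 6 mice, at differences of 0.60 to 0.65, since the adjusted p ran from 0.0508 to 0.174 in limma. Among mice of 4 months or more it ended without old non-arthritic replicate 1 (0.56, adjusted p = 0.163), old non-arthritic replicate 2 (0.75, 0.0922), young arthritic replicate 1 (0.64, 0.0526) and young arthritic replicate 2 (0.67, 0.056). It ended there as well with the groups compared alone in the fit (0.65, adjusted p = 0.0719) and with the replicate block (0.65, 0.0529). In the young mice the replicate block gave 0.64 (adjusted p = 0.121 from limma).

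**Figure D3:**
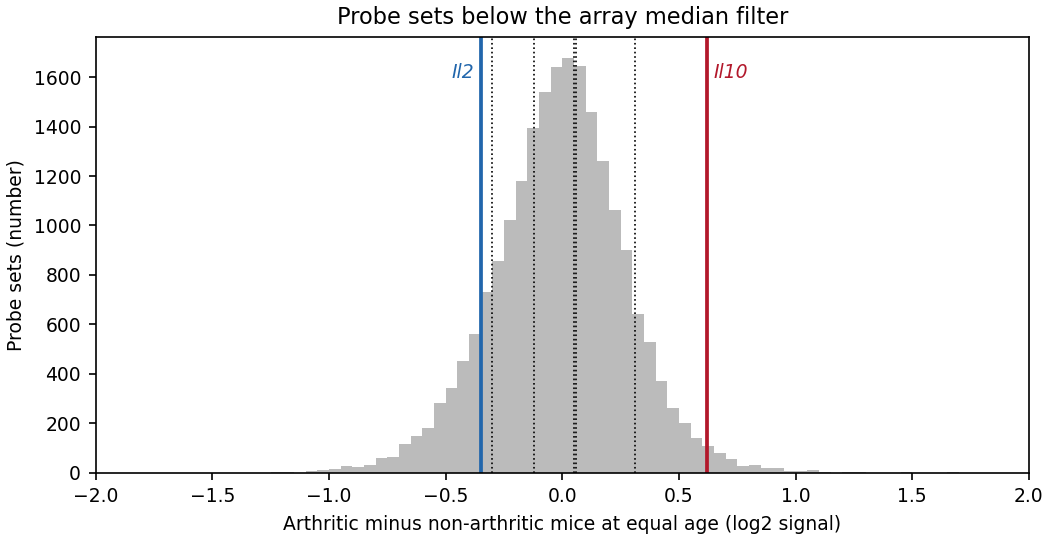
Number of probe sets (y-axis) by their log2 difference with arthritis at equal age (x-axis, arthritic minus non-arthritic) for the 21232 dim probe sets, of which 1 lies beyond the axis. The red line is Il10 at 0.62, the blue line is Il2 at -0.35, and the dotted lines are Gata3, Ifng, Il4, Il6 and Il17a.

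Il2 encodes IL-2, the T cell growth factor that is induced when the T cell receptor and CD28 are engaged. Its transcription is known to depend on NFAT, a factor that binds a GGAAA core. The 250 bases upstream of the Il2 start site (RefSeq, GRCm38.p6, chr3:37125955-37126204, minus strand) are given here, 5′ to 3′. Il2 was chosen because it alone of the 8 genes was called lower at equal age. Cytokine genes outside these 8 were called lower as well and are given below. Capitals mark each GGAAA on either strand (TTTCC on the strand shown):
Il2: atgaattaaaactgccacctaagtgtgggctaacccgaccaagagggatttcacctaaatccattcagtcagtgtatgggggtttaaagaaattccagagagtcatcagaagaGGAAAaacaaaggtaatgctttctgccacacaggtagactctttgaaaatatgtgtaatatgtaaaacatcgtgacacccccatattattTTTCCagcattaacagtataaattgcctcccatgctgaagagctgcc
The core was present 2 times, starting 137 and 47 bases before the start site. Of 32851 promoter windows of the same length, 55.6% held at least 1 match and 21.4% held at least 2, so that the matches do not set Il2 apart, and binding was not measured.

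The Il2 signal was 4.43 and 4.40 in the old arthritic mice, against 4.86 and 4.82 in the old non-arthritic mice. It was 4.51 and 4.46 in the young arthritic mice, against 4.90, 4.70, 4.68 and 4.76 in the young non-arthritic mice. The highest arthritic mouse lay below the lowest non-arthritic mouse, and 5.12% of all and 8.93% of dim probe sets separated the mice in this direction. The mean was 4.45 ± 0.05 in arthritic mice and 4.79 ± 0.09 in non-arthritic mice (SD, n = 4 and 6). The spread of Il2 within groups was small, with a residual SD of 0.07, and 9.97% of all probe sets varied less.

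At equal age, Il2 fell by 0.35 in arthritic mice (standard error 0.08, adjusted p = 0.0215 from limma), where 5.02% of all probe sets and 9.26% of the dim probe sets were called lower. A decrease at least as large was found in 10.8% of the dim probe sets. The call was lost without old non-arthritic replicate 1 (-0.31, adjusted p = 0.134), old non-arthritic replicate 2 (-0.34, 0.0593) and young arthritic replicate 2 (-0.37, 0.104). Among mice of 4 months or more, the difference was -0.39 (standard error 0.09, adjusted p = 0.0257 from limma). This call ended without old arthritic replicate 2 (-0.38, adjusted p = 0.0556), old non-arthritic replicate 1 (-0.37, 0.16), old non-arthritic replicate 2 (-0.41, 0.13), young arthritic replicate 1 (-0.40, 0.0544) and young arthritic replicate 2 (-0.37, 0.0775), with each array centred on its median (-0.36, 0.0503), with the replicate block (-0.39, 0.0626) and with the groups compared alone in the fit (-0.39, 0.0507).

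Within the old mice the Il2 difference was -0.42 (standard error 0.10, adjusted p = 0.0419 from limma). When each of the 10 mice was left out in turn, it was called in 1 case, without young non-arthritic replicate 1 (adjusted p = 0.035 from limma). Without each of the other 9 mice the adjusted p ran from 0.0552 to 0.17. It was also not called with centring (adjusted p = 0.0712), array weights (0.0564), the replicate block (0.0945) or the groups compared alone in the fit (0.145). Within the young mice the difference was -0.27 (standard error 0.09) and was not called (adjusted p = 0.0876 from limma). The 2 effects differed by -0.15 (95% interval -0.45 to 0.14, adjusted p = 1 from limma).

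Markers of granulocytes were called higher in arthritic mice beside these 2 genes, but not in every comparison. At equal age, 6 of the 9 measured neutrophil markers were called higher in arthritic mice (median difference 1.11), against 11.2% of named genes in either direction. The mean log2 level of the 9 markers ran from 13.18 to 13.82 in arthritic mice and from 12.26 to 13.47 in non-arthritic mice. Of the mast cell and basophil markers, 4 of 7 were called higher (median difference 0.69). These were the basophil protease gene Mcpt8 (1.28), the mast cell carboxypeptidase gene Cpa3 (0.95), the IgE receptor chain gene Fcer1a (0.91) and Hdc, which encodes the enzyme of histamine synthesis (0.69). The mean log2 level of the 7 markers was 8.27 to 8.42 in old arthritic, 7.83 to 8.07 in old non-arthritic, 8.70 to 8.96 in young arthritic and 8.43 to 8.68 in young non-arthritic mice, so that the old arthritic mice lay below every young non-arthritic mouse. Within old mice 0 of these 7 markers and 4 of the 9 neutrophil markers were called, against 4.66% of named genes in either direction. Within young mice 0 of the 7 and 0 of the 9 were called, against 6.24% of named genes. None of 15 T cell, 8 B cell and 9 macrophage markers was called by limma at equal age, with 1, 0 and 2 at an unadjusted p under 0.05. The part of these cell types in the Il10 and Il2 differences was not tested, and in RNA of a whole spleen fewer cells of a type and less RNA per cell cannot be told apart.

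Tbx21, which encodes the Th1 regulator T-bet, had signals of 8.39 and 8.20 in the old arthritic mice, against 8.75 and 8.76 in the old non-arthritic mice. They were 8.76 and 8.56 in the young arthritic mice, against 8.75, 9.02, 8.38 and 8.38 in the young non-arthritic mice. The 4 lowest signals were those of both old arthritic mice and of the non-arthritic mice of 2 and 1 months, and the groups of young mice overlapped. Tbx21 was lower by 0.46 in old arthritic than in old non-arthritic mice (standard error 0.20) without passing the threshold (adjusted p = 0.194 from limma), and the difference in young mice was 0.03 (standard error 0.17, adjusted p = 0.937). The effects in old and young mice differed by -0.49 (95% interval -1.07 to 0.10, adjusted p = 1 from limma). At equal age the difference was -0.18 (95% interval -0.58 to 0.21, adjusted p = 0.537 from limma).

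Tbx21 varied together with markers of NK and cytotoxic cells. The mean log2 level of 11 such markers was 8.21 and 8.12 in the old arthritic mice, 8.51 and 8.51 in the old non-arthritic mice, 8.41 and 8.49 in the young arthritic mice, and 8.77, 8.76, 8.20 and 8.31 in the young non-arthritic mice. Over the 10 mice the correlation with Tbx21 was r = 0.89 (permutation p = 0.00074, adjusted p = 0.0118) and Spearman's rho was 0.80 (permutation p = 0.00705, adjusted p = 0.057), with 16 relations of the 8 genes to 2 marker lists computed. The relations were chosen after the values were seen, and the permutations took no account of the groups. These p-values therefore describe the relations and do not test them. Without the 2 mice farthest from the median of the marker level, r was 0.92. With the 15 T cell markers the correlation of Tbx21 was r = 0.74 (permutation p = 0.0169, adjusted p = 0.0674) and rho was 0.57 (permutation p = 0.0883, adjusted p = 0.202), and r was 0.50 without the 2 farthest mice. Klrd1, a receptor of NK cells, was the 1 of the 11 markers called in old mice, where 4.66% of named genes were (-0.99 in arthritic mice, standard error 0.23, adjusted p = 0.0407 from limma), and 0 were called in the other comparisons. The markers did not all go in 1 direction in old mice. Gzma and Ncr1 were lower in the arthritic mice (-0.94 and -0.88), while Gzmk and Nkg7 were higher (0.53 and 0.15), without a call. The genes whose signal followed that of Tbx21 most closely over the 10 mice were Acp2, Nxpe3 and Tcf4, at r = 0.949, 0.941 and 0.939, as the highest 3 of 11869 genes. Of the probe sets compared, 0.973% had r above 0.8.

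Gata3, which encodes the regulator of Th2 cells and is also needed for T cell development, had signals of 6.03 and 5.52 in the old arthritic mice, against 6.31 and 6.57 in the old non-arthritic mice. They were 6.38 and 6.10 in the young arthritic mice, against 6.55, 6.59, 6.27 and 6.23 in the young non-arthritic mice. Both old arthritic mice lay below the other 8 mice. The difference in old mice was -0.66 (standard error 0.19) and missed the threshold (adjusted p = 0.0758 from limma), while that in young mice was -0.17 (standard error 0.17, adjusted p = 0.551). The 2 effects differed by -0.49 (95% interval -1.06 to 0.08, adjusted p = 1 from limma). Without old arthritic replicate 1, the difference in old mice was -0.92 and passed (adjusted p = 0.0271 from limma), with the old arthritic group then held by the mouse at 5.52. Without old arthritic replicate 2 it was -0.41 (adjusted p = 0.369 from limma), so that the size depended on which of the 2 mice was kept. Among mice of 4 months or more Gata3 had -0.43 (adjusted p = 0.132 from limma), -0.56 without old arthritic replicate 1 (adjusted p = 0.0424) and -0.30 without old arthritic replicate 2.

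Gata3 also followed the lymphocyte markers, with the same limits on the p-values. Over the 10 mice its correlation was r = 0.78 with the NK and cytotoxic markers (permutation p = 0.00484, adjusted p = 0.0387; rho = 0.80, permutation p = 0.00712, adjusted p = 0.057) and r = 0.76 with the T cell markers (permutation p = 0.0077, adjusted p = 0.0411; rho = 0.60, permutation p = 0.0749, adjusted p = 0.202). Without the 2 farthest mice r was 0.69 with the NK and cytotoxic markers and 0.38 with the T cell markers. For the T cell markers those 2 mice were the old arthritic ones, and the relation rested on them. The mean T cell marker level was 9.73 and 9.63 in the old arthritic mice, 9.86 and 9.95 in the old non-arthritic mice, 9.97 and 10.01 in the young arthritic mice, and from 9.73 to 10.10 in the young non-arthritic mice. Il2 had r = 0.60 with the NK and cytotoxic markers (rho = 0.75) and r = 0.51 with the T cell markers (rho = 0.52). Without the 2 farthest mice these r were 0.31 and 0.03. For Il10, r was -0.56 and -0.53 with the same lists (rho = -0.60 and -0.43), and -0.21 and 0.10 without those mice. No adjusted permutation p of Il2 or Il10 was under 0.05.

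Ifng encodes interferon gamma, the signature cytokine of Th1 cells and a product of activated NK cells. Its signal was 5.38 and 5.44 in the old arthritic mice, against 5.44 and 5.48 in the old non-arthritic mice, and 5.57 and 5.48 in the young arthritic mice, against 5.45, 5.55, 5.13 and 5.20 in the young non-arthritic mice. The 2 lowest values were those of the non-arthritic mice of 2 and 1 months, and all other mice lay within 5.38 to 5.57. The arthritis difference of Ifng at equal age was 0.05 (95% interval -0.20 to 0.30, adjusted p = 0.797 from limma).

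Il4 encodes IL-4, which drives Th2 differentiation and the switch to IgG1 and IgE. Its signal was 4.90 and 5.24 in the old arthritic mice, against 5.09 and 4.91 in the old non-arthritic mice, and 5.04 and 5.22 in the young arthritic mice, against 5.07, 5.27, 5.01 and 4.70 in the young non-arthritic mice. Every group overlapped with the others. At equal age the difference was 0.06 (95% interval -0.24 to 0.36, adjusted p = 0.803 from limma).

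Il17a encodes the Th17 cytokine that recruits neutrophils. Its signal ran from 5.08 to 5.30 over all 10 mice, and 3.16% of all probe sets had a smaller residual SD than its 0.05. It was 5.22 and 5.19 in the old arthritic mice, against 5.30 and 5.24 in the old non-arthritic mice, and 5.08 and 5.10 in the young arthritic mice, against 5.16, 5.08, 5.11 and 5.25 in the young non-arthritic mice. The 5 highest values were those of the 4 old mice and of young non-arthritic replicate 4, and all mice lay within 0.23 of each other. At equal age the difference was -0.12 (95% interval -0.29 to 0.05, adjusted p = 0.324 from limma).

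Il6 encodes IL-6, a cytokine of macrophages, stromal cells and B cells that supports Th17 cells and plasma cells. Its signal was 4.64 and 4.74 in the old arthritic mice, against 4.22 and 5.03 in the old non-arthritic mice, and 5.36 and 4.85 in the young arthritic mice, against 4.88, 5.28, 5.08 and 4.70 in the young non-arthritic mice. Il6 had the largest spread within groups of the 8 genes, with a residual SD of 0.33. The old non-arthritic mice held its lowest value and a value above those of 6 other mice. At equal age the difference was 0.31 (95% interval -0.16 to 0.77, adjusted p = 0.362 from limma). Its slope with age, with arthritis in the fit, was -0.08 per month (standard error 0.04) and did not pass (adjusted p = 0.493 from limma).

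**Figure D4:**
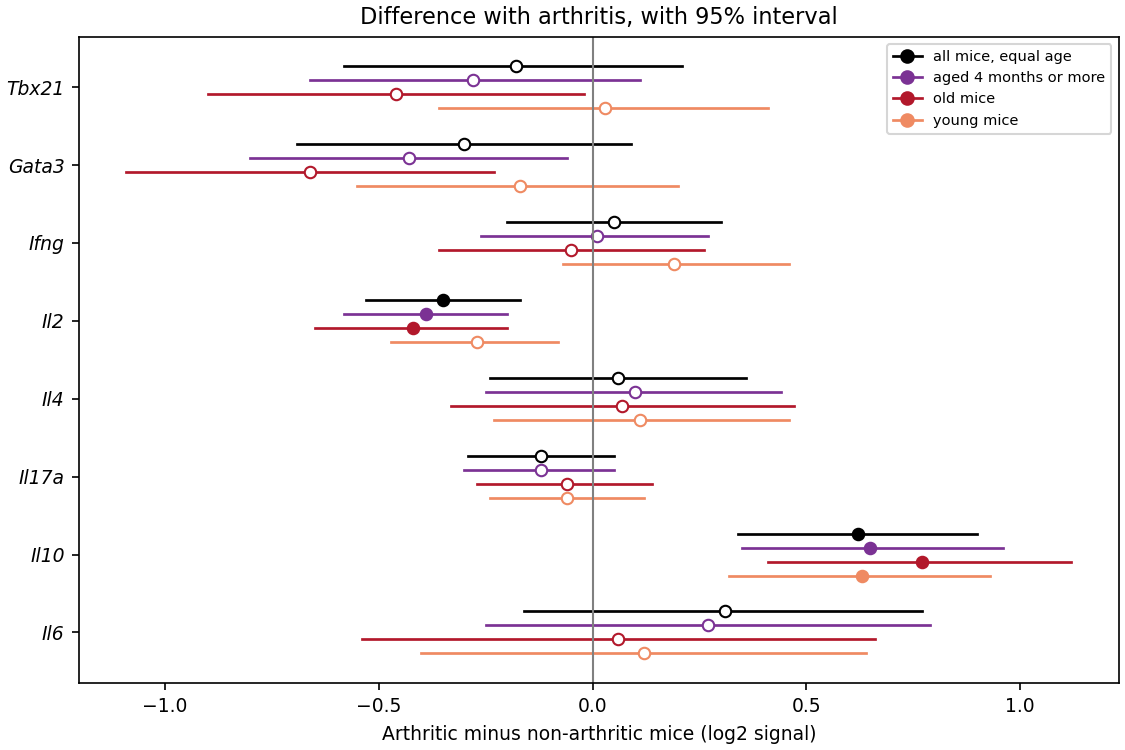
Arthritic minus non-arthritic log2 signal (x-axis) of each of the 8 genes (y-axis) in 4 comparisons that share mice, with 95% intervals from limma, where filled points passed an adjusted p under 0.05. Il10 lies between 0.62 and 0.77 and passed in all 4, and Il2 lies between -0.42 and -0.27 and passed in 3.

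The study asked whether age alters the immune response to PG, and old and young non-arthritic mice were compared here, without arthritis in either group. All had been immunized, and the paper reports that arthritis became more frequent with age. Being without arthritis thus selects a smaller part of old than of young mice, and this comparison does not isolate age. None of the 8 genes was called between old and young non-arthritic mice in limma (adjusted p = 0.998 for each), and none had an unadjusted p under 0.05. Of all probe sets 0% were called, with 1682 of them at an unadjusted p under 0.05. The differences ran from -0.36 for Il6 (standard error 0.23) to 0.13 for Ifng (standard error 0.12), and the intervals included 0 for every gene. The Il6 value rested on single mice, as it was 0.05 without old non-arthritic replicate 1 and -0.76 without old non-arthritic replicate 2. For Tbx21 the interval was -0.26 to 0.50 and for Gata3 it was -0.35 to 0.40. With age in months as a slope, none of the 8 genes was called either, against 0.00222% of all probe sets, and the smallest adjusted p was that of Il6. The old group here holds 2 mice of 7 and 5 months, so that changes after 7 months are not covered by non-arthritic mice.

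The signal of Ifng was also set against that of Il4 in each mouse. Both probe sets lay below the array median in all 10 mice and were not shown above background, so that this difference is one of signals, and an overlap of the groups says nothing about the Th1/Th2 balance of RNA. The Ifng minus Il4 difference was 0.48 and 0.20 in the old arthritic mice, against 0.35 and 0.57 in the old non-arthritic mice, and 0.54 and 0.26 in the young arthritic mice, against 0.38, 0.27, 0.12 and 0.50 in the young non-arthritic mice. The young non-arthritic mice alone spanned 0.12 to 0.50, and all 4 groups overlapped. The mean was 0.46 ± 0.15 in old and 0.32 ± 0.16 in young non-arthritic mice (SD, n = 2 and 4), and 0.37 ± 0.16 in both arthritic and non-arthritic mice (SD, n = 4 and 6). The size of such a difference depends on the probes, so that its variation between mice alone can be read.

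The same difference between the regulators, Tbx21 minus Gata3, carries the same limit through Gata3, which was not shown above background. It was 2.36 and 2.68 in the old arthritic mice, against 2.44 and 2.19 in the old non-arthritic mice, and 2.38 and 2.46 in the young arthritic mice, against 2.20, 2.43, 2.11 and 2.15 in the young non-arthritic mice. The means were 2.47 ± 0.15 in arthritic and 2.25 ± 0.15 in non-arthritic mice (SD, n = 4 and 6), and the ranges overlapped. Between old and young non-arthritic mice the means were 2.32 ± 0.18 and 2.22 ± 0.14 (SD, n = 2 and 4). These are descriptions without a test, since the genes were chosen with earlier results of the same arrays known.

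**Figure D5:**
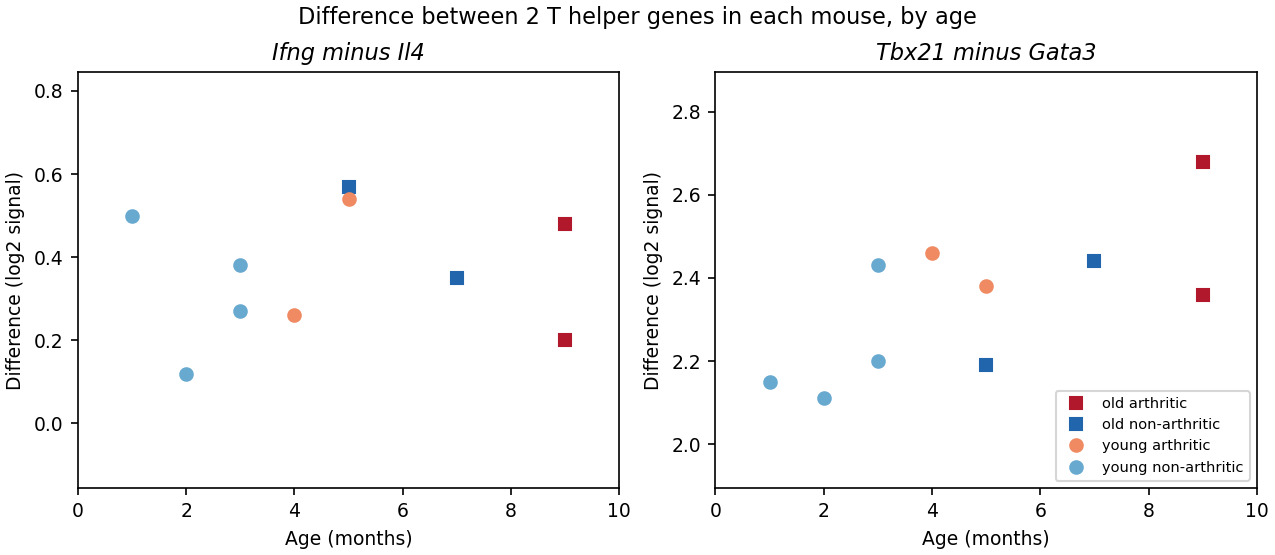
Difference of 2 log2 signals in each mouse (y-axis) by age in months (x-axis) for Ifng minus Il4 (left) and Tbx21 minus Gata3 (right), with 1 point per mouse (squares for old, circles for young, red shades for arthritic and blue shades for non-arthritic mice). On the left the values run from 0.12 to 0.57 without order by group, and on the right the highest value, 2.68, is that of an old arthritic mouse.

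Among other genes of the T helper pathways, few were called. Of 17 measured genes of Th1 induction and function, such as the interleukin 12 receptor chains, Stat4 and Eomes, 0 were called by limma in any of the 7 comparisons, with 0 to 4 of them at an unadjusted p under 0.05. At equal age 11.2% of all named genes were called and 29% had an unadjusted p under 0.05, against 0 and 1 of the 17 Th1 genes. Il12rb2, which lay below the array median in all 10 mice, had the smallest p at equal age (-0.34, standard error 0.11, adjusted p = 0.0609 from limma). The median difference of the Th1 genes at equal age was -0.05, against 0.09 over all named genes. Of 14 measured Th2 genes, 2 (14.3%) were called at equal age, near the 11.2% of all named genes. Il5, the eosinophil growth factor, was higher by 0.37 (standard error 0.09, adjusted p = 0.0304) and Il9, a mast cell growth factor, fell by 0.33 (standard error 0.09, adjusted p = 0.032 from limma). Il13, the Th2 effector cytokine that lies beside Il4 in the genome, had 0.06 (standard error 0.09). Il5 lay below the array median in all 10 mice, and Il9 lay above it in 9. The direction of the 2 calls was thus opposite, and the Th2 median was 0.06.

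Of 14 measured Th17 genes, 1 (7.14%) was called at equal age, again near the 11.2% of named genes. It was Ccl20, the chemokine that attracts CCR6-bearing cells, which was higher by 0.36 (standard error 0.10, adjusted p = 0.0436) and lay below the array median in all mice. Among mice of 4 months or more, where 8.02% of named genes were called, Il21, a cytokine of Th17 and follicular helper cells, fell by 0.42 in arthritic mice (standard error 0.10, adjusted p = 0.035) beside an increase of Ccl20 (0.41, adjusted p = 0.0489). In young mice, where 6.24% of named genes were called, Il3, a growth factor of basophils and mast cells, fell by 0.47 (standard error 0.12, adjusted p = 0.039) and Il5 was higher by 0.45 (adjusted p = 0.0295). Il21 and Il3 also lay below the array median in all 10 mice. The median of the Th17 genes at equal age was 0.15. Receptor chains of the 6 cytokines were bright, with 10 of 11 above the array median in at least 2 mice, and 0 of 11 were called by limma in any comparison, with 0 to 2 at an unadjusted p under 0.05. At equal age 2 of the 11 had an unadjusted p under 0.05, Il17ra at 0.28 (standard error 0.09, adjusted p = 0.0727) and Il6st, the shared signalling chain of the IL-6 family, at 0.26 (standard error 0.10, adjusted p = 0.105). The IL-10 receptor genes Il10ra and Il10rb had 0.07 and 0.18 (standard errors 0.09 and 0.10), and the IL-2 receptor genes Il2ra and Il2rb had 0.08 and -0.24 (standard errors 0.10 and 0.12).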

How the data were processed

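Spleen RNA of 10 mice was labelled with biotin and hybridized to Affymetrix mouse arrays. The deposited log2 signals were made by the authors with RMA, per the submitters' processing notes, with no version in the sources used. No array method is described in the paper. Of 45101 rows, 64 controls were left out. Genes were named from the platform table where a probe set had 1 symbol (34945 probe sets).

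Linear models were fitted to all 45037 probe sets in R 4.3.3 with lmFit and eBayes of limma 3.58.1, because most of the genes would fail a filter on dim probe sets. A mean for each of 4 groups (6 residual degrees of freedom) gave 5 comparisons, and a model of arthritis plus age in months (7 residual degrees of freedom) gave 2. The fit was tested on simulated data with independent noise around the mean of each probe set. Those data held no shift of dim probe sets between groups, so that the simulation says nothing about it. The number of arrays limits the precision. Alternatives covered filters on dim probe sets, scaling, the estimate of the spread, array weights, a replicate block, the groups in the fit and leaving out each mouse.

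The genes and lists were chosen with earlier results of these data known. All probe sets of the 8 genes are named, and of each list up to 4 genes with the smallest p in a comparison described, and further list members given as values were chosen after their values were seen. A listed gene stands for its brightest probe set. Lists hold Th1, Th2 and Th17 genes, cytokine receptor chains and markers of T, NK and cytotoxic, B, mast cell and basophil, neutrophil, macrophage and stromal cells, and 0 of 7 stromal markers were called in any comparison. Correlations with the marker lists were chosen after the values were seen and used 100000 permutations. Figures were drawn with matplotlib 3.10.9.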

Additional observations from a re-analysis of the deposited data

Results flagged for a closer look

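Among the young non-arthritic mice, the Il10 signal of replicate 1 (4.80, log2) stood below the 3 remaining values, which were all 4.88. This distance made up 0.926 of the spread from the lowest to the highest mouse. It is below the standard error (0.13) of the Il10 difference for arthritis. The check covered 10 sets of 4 values and singled out 1, where about 1 in 20 is given by chance.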

How the results depend on the processing

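The called log2 differences kept their direction in all 117 refits. Uncalled differences changed sign in 14 of 335 refits under other settings, 10 of them with the replicate block, and in 29 of 490 that left out a mouse. Examples are Tbx21 (0.12 and -0.13 with the block) and Ifng (0.13 and -0.04) between old and young non-arthritic mice, and Il6 among mice of 4 months or more (0.27 and -0.14 without old non-arthritic replicate 1). The number of called genes depended on the setting. A filter takes the dim genes out of the count by construction, and for the other settings, smaller sets of mice among them, the cause was not tested. With probe sets above the array median in at least 2 mice, or in all 10, Tbx21 alone of the 8 genes entered, and the count fell to 0 at equal age, among mice of 4 months or more, in old mice and in young mice. Centring each array on its median left 1 call (Il10) among mice of 4 months or more and 1 in old mice, and array weights left 1 in old mice. With the groups compared alone in the fit, 0 were called among mice of 4 months or more and 0 in old mice. The replicate block left 0 calls among mice of 4 months or more, in old mice and in young mice, and the same 2 genes at equal age. Replicate numbers were not taken as a pairing, since the labels name biological replicates and no pairs. Same-numbered mice had deviations that correlated from -0.45 to 0.31 over 12 pairs. In a group of 2 mice the deviations are equal and opposite, so that these pairs are not independent and cannot exclude a pairing. Leaving out each mouse in turn, with a single remaining mouse taken to vary as the other groups do, calls ran from 0 to 2 at equal age, 0 to 3 among mice of 4 months or more, 0 to 2 in old mice and 0 to 1 in young mice, and were 0 for both comparisons by age and for the difference of the effects. Quantile normalization, a trend of the spread with intensity and robust eBayes left every count within 1.5 times. Averaging the probe sets of a gene gave the same Ifng minus Il4 and Tbx21 minus Gata3, as each gene has 1. Over all probe sets, calls at equal age numbered 5475, against 538 and 256 with the looser and the stricter filter. Of the 23805 probe sets kept by the looser filter, 1717 were called at equal age when the dim probe sets shared the fit. The drop to 538 was thus more than the removal of dim probe sets, and its cause was not tested. Calls over all probe sets were 3997 against 137 and 5 among mice of 4 months or more, 2280 against 17 and 3 in old mice, and 3186 against 74 and 2 in young mice. The block gave 1596, 0 and 0 in these 3 comparisons, the groups compared alone gave 1828 among mice of 4 months or more and 0 in old mice, and array weights gave 10821 at equal age, 1483 in old mice and 5372 in young mice. Leaving out each mouse gave 992 to 6130 at equal age, 251 to 5828 among mice of 4 months or more, 31 to 3777 in old mice and 10 to 3513 in young mice.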
